A study of Homo sapiens with 12 samples.

Results

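Treatment with a small interfering RNA (siRNA) against SIN3A was followed on 3 arrays. These were set against 3 arrays of the scrambled control NC1, replicates 1 to 3. These 6 arrays are 6 of the 12 in the series and were taken by their titles. All carried RNA of Calu-3, an established human airway epithelial line, and all cells, the controls included, had been transfected with an oligonucleotide by a lipid reagent. The labels give no genotype beyond the line, no dose and no harvest time. The 3 further control arrays, NC1 4 to 6, serve only as a check, and 3 arrays of a miR-138 mimic were not compared. Every label names Calu-3, although the protocol for RNA extraction mentions primary cultures. Separate cultures are not mentioned for arrays titled as biological replicates, so every p-value here measures the spread among these arrays alone, part or all of which may be technical. Calu-3 is 1 line, derived from an airway tumour, and stands for no other donor or tissue.

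SIN3A is the scaffold of a corepressor complex that carries histone deacetylases and is brought to promoters by DNA-binding factors. Removing acetyl groups from histones generally lowers transcription, and the complex has also been found at active genes. CFTR is the chloride and bicarbonate channel of airway epithelium, and the series title places it under a microRNA network. The comparison asks which transcripts of these cells differ after an siRNA against the scaffold.

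Levels are in log2 units, so a difference of 1 is a doubling. One probe set stood for each of 18417 genes, and a gene was called where the limma adjusted p (Benjamini-Hochberg over all 18417 genes) was under 0.05. "Rose" and "fell" are used of called genes alone. Errors of differences are standard errors (SE) of that fit. The siRNA arrays correlated with each other across genes at 0.990 to 0.991, NC1 1 with NC1 2 at 0.987, and NC1 3 with those at 0.979 to 0.981, so NC1 3 lay apart from its group. Each array holds RNA of a whole culture, so fewer cells of a type and less RNA per cell cannot be told apart.

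The epithelial label was checked against markers. Of 15 measured markers of Calu-3 identity, 14 lay above the array's median on all 6 arrays, EPCAM at 10.65 to 10.89 among them. The count was 8 of 21 for basal and squamous, 3 of 24 for ciliated, 4 of 22 for fibroblast, 5 of 24 for leukocyte and 4 of 20 for endothelial markers. Such a level gives no amount of RNA, since probe sets differ in response. Among these other cell types the basal list had 1 call, KRT13, a squamous keratin, which rose by 0.50 (SE 0.10), with 0.03 against NC1 4 to 6 and a call lost whichever array was left out (highest adjusted p = 0.165). The 4 other lists had none, with 2 ciliated, 1 fibroblast, 3 leukocyte and 0 endothelial genes at an unadjusted p under 0.05 in limma, and none was called when all 12 arrays were fitted as 4 groups. The log2 of the summed leukocyte markers was 10.52 to 10.66 with NC1 1 to 3 and 10.40 to 10.46 with the siRNA, and that of the ciliated markers 9.93 to 10.04 and 9.87 to 9.92. For fibroblast markers it was 9.33 to 9.45 and 9.36 to 9.38, for endothelial markers 9.11 to 9.31 and 9.16 to 9.22, and for basal markers 9.88 to 9.94 and 9.85 to 10.01. The leukocyte and ciliated sums were thus slightly lower on every siRNA array, and their part in the results was not tested.

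The targeted transcript was lower on every siRNA array, but its difference narrowly missed the threshold. SIN3A (probe set 7990487) was at 6.79, 6.71 and 6.36 with NC1 1 to 3, and at 6.17, 5.88 and 6.03 with the siRNA. The groups did not overlap, and NC1 3 was the control array nearest to the siRNA arrays. The means were 6.62 ± 0.23 (SD, n = 3) and 6.03 ± 0.14 (SD, n = 3), which left 66.3% of the control level (log2 difference -0.59, SE 0.13, limma adjusted p = 0.0528). An exact two-sided permutation test over the 6 arrays gave p = 0.1, the smallest that 3 against 3 allows. With all 12 arrays fitted as 4 groups, which estimates the spread from more arrays, the same difference was called (limma adjusted p = 0.0104). The 6-array fit called it without NC1 3 (-0.73, limma adjusted p = 0.0226). NC1 4 to 6 were at 7.34, 7.16 and 7.11, above all of NC1 1 to 3, and against them the difference was -1.18 (limma adjusted p = 0.000108). The sequence of the siRNA was not used here.

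The list of the deacetylase complex and its partners, which counts SIN3A itself, had 1 call against NC1 1 to 3. It had more in the fit of 12 arrays and against NC1 4 to 6. Of 31 measured members of the complex and its partners, 1 rose (3.23%, against 1.27% of all genes) and 0 fell, with a list median of 0.07 against -0.01 over all genes. In the fit of 12 arrays 5 were higher and 2 lower (all genes 3.66% and 2.04%). Against NC1 4 to 6, the other control arrays, 5 were called higher and 7 lower (all genes 5.05% and 6.24%), with a median of -0.03. SIN3A itself is among the lower genes in both of these fits. The rising gene was BRMS1, a subunit known as a suppressor of metastasis, at 4.87, 4.92 and 5.08 with NC1 1 to 3 and 5.31, 5.52 and 5.50 with the siRNA (0.48, SE 0.11, limma adjusted p = 0.0491). Its call was lost without NC1 1, NC1 2 or any siRNA array (highest adjusted p = 0.22). The paralogue SIN3B was at 5.05, 5.14 and 5.34 and at 5.37, 5.03 and 5.33, so its groups overlapped (0.07, SE 0.12, limma adjusted p = 0.851). The deacetylases HDAC1 (0.17, SE 0.10) and HDAC2 (-0.13, SE 0.11) were not called either. Subunit genes ING2 (0.55) and SUDS3 (0.44) and the partner gene TET1 (-0.52) had larger differences that missed the threshold, with limma adjusted p values of 0.0532, 0.0973 and 0.0664.

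CFTR (probe set 8135661) fell. It was at 7.95, 7.93 and 7.46 with NC1 1 to 3 and at 6.69, 6.66 and 6.50 with the siRNA, so that even the lowest control array lay well above the highest siRNA array. The means were 7.78 ± 0.27 and 6.62 ± 0.10 (SD, n = 3 each), leaving 44.6% of the control level (log2 difference -1.16, SE 0.14, limma adjusted p = 0.00544). The exact permutation test again gave 0.1, its lower limit at this size. NC1 4 to 6 were at 8.27, 8.22 and 7.89, and against them the difference was -1.51. The call was lost without siRNA 3 (-1.11, limma adjusted p = 0.0655). Of 28 measured genes of airway ion and fluid transport, CFTR was the 1 that fell (3.57%, against 0.744% of all genes) and 0 rose, with a list median of -0.04. The median was also -0.04 against NC1 4 to 6, with 1 called higher and 4 lower (all genes 5.05% and 6.24%).

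Over the whole transcriptome, 234 genes rose (1.27% of those tested) and 137 fell (0.744%). Rises ran from 0.43 to 1.49 with a median of 0.64, and falls from -0.43 to -2.11 with a median of -0.66. At a change of at least 1 on the log2 scale, a doubling or a halving, there were 18 rises and 16 falls. For all 371 called genes the siRNA arrays and NC1 1 to 3 did not overlap. Such separation was common among all genes: the siRNA arrays lay above NC1 1 to 3 for 2069 genes (11.2%) and below them for 1665 (9.04%). Another 2432 genes were at an unadjusted p under 0.05 without passing. A second quantile normalization called 171 higher and 200 lower, so higher genes were 46.1% of its calls against 63.1% as reported. NC1 3 was the lowest control array for 173 of the 234 rising genes and for 88 of the 137 falling ones. How often it was the lowest over all genes was not counted. Without NC1 3 the fit called 150 higher and 172 lower. Without NC1 2 it called 45 genes in all, and without siRNA 1, 2 or 3 it called 34, 39 or 23. The fit of 12 arrays as 4 groups called 674 higher (3.66%) and 376 lower (2.04%).

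**Figure D1:**
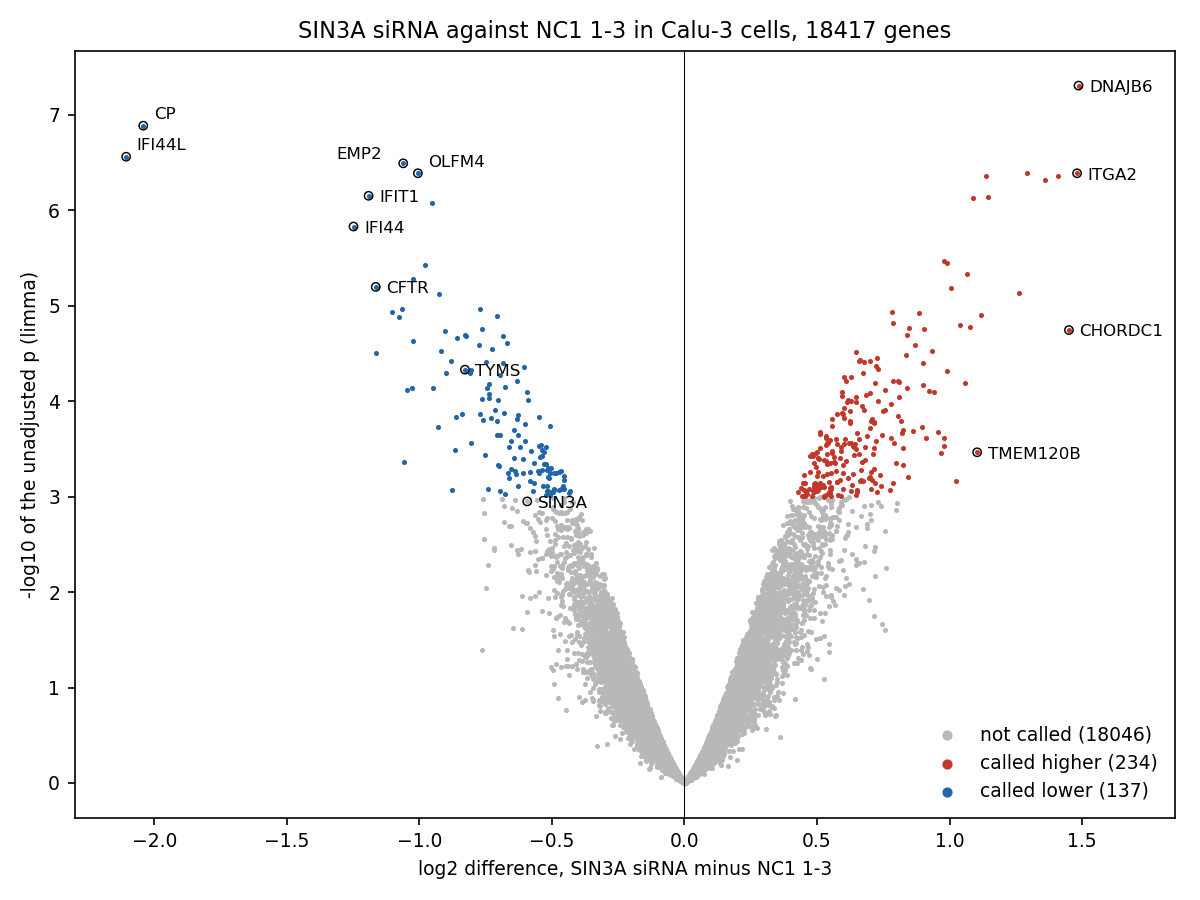
Each point is 1 of 18417 genes, with the log2 difference of the siRNA arrays from NC1 1 to 3 on the x axis and the -log10 of the unadjusted limma p on the y axis. Red points (234) and blue points (137) are called, and circles mark named genes. IFI44L and CP lie farthest left, DNAJB6 and ITGA2 farthest right, and SIN3A sits just below the called genes.

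The check against NC1 4 to 6 split the called genes. The siRNA arrays also lay above all of NC1 4 to 6 for 150 of the 234 rising genes, and below all of them for 17. For the 137 falling genes, they also lay below all of NC1 4 to 6 for 77, and above all of them for 20. The share of all genes separated from NC1 4 to 6 was not counted, so these counts give no rate of agreement or reversal. A separate fit against NC1 4 to 6 called 930 genes higher (5.05%) and 1149 lower (6.24%). The control parts themselves differed for 1850 genes in the fit of 12 arrays. What differed between the control parts is not given in the sources used here, and genes and lists below are therefore given with both values. Members of a list called against NC1 1 to 3 stand beside 1.27% of all genes higher and 0.744% lower, and those called against NC1 4 to 6 beside 5.05% higher and 6.24% lower. List counts from fits that left out 1 array stand beside the all-gene calls of the same fits. Without NC1 1, 2 or 3 these were 398, 27 or 150 higher and 113, 18 or 172 lower. Without siRNA 1, 2 or 3 they were 18, 19 or 11 higher and 16, 20 or 12 lower. No list was tested as a whole.

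Among the largest falls were several with the same direction against both control parts. EMP2, a tetraspan protein of epithelial membranes, was at 8.09, 8.0 and 7.99 with NC1 1 to 3 and at 6.93, 7.0 and 6.97 with the siRNA (-1.06, SE 0.09, limma adjusted p = 0.000883). It was at 8.48, 8.37 and 8.42 with NC1 4 to 6, so both control parts lay far above the siRNA arrays. OLFM4, a secreted glycoprotein of mucosal epithelia, had closely spaced arrays: 6.32, 6.33 and 6.34 against 5.32, 5.35 and 5.30 (-1.01, SE 0.09), with -1.12 against NC1 4 to 6. MOB1A, a coactivator of the Hippo pathway kinases, fell from 7.30, 7.19 and 6.76 to 6.05, 5.93 and 6.05 (-1.08, SE 0.14), and the check gave -1.55. RCN1, which binds calcium in the lumen of the endoplasmic reticulum, fell by 1.06 (SE 0.13) and the check gave -1.08. SLFN11, which blocks stressed replication forks, fell by 1.05 (SE 0.16), again with -1.05 in the check. ANKRD31, known from meiotic recombination, was at 5.44, 5.42 and 4.89 and then at 3.85, 4.10 and 4.30 (-1.16, SE 0.16), with -0.49 in the check. SLFN11 and ANKRD31 are dim, each with a mean under 5 over the 6 arrays. EMP2 and OLFM4 kept their calls whichever of the 6 arrays was left out. RCN1 lost its call without NC1 2, siRNA 1 or siRNA 3, and MOB1A, SLFN11 and ANKRD31 without NC1 2 or any siRNA array, with highest adjusted p values of 0.0788, 0.0768, 0.115 and 0.0752.

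The largest falls of all were not seen in the check. IFI44L, an interferon-induced gene, was at 7.38, 7.13 and 6.80 with NC1 1 to 3 and at 4.81, 5.36 and 4.82 with the siRNA (-2.11, SE 0.18, limma adjusted p = 0.000883), 23.2% of the control level. NC1 4 to 6 were at 4.66, 5.02 and 5.15, overlapping the siRNA arrays. CP, which encodes the copper-carrying plasma protein ceruloplasmin, was at 6.53, 6.49 and 5.92 against 4.18, 4.19 and 4.44 (-2.04, SE 0.16, limma adjusted p = 0.000883), with 4.31, 4.27 and 4.42 for NC1 4 to 6. For both genes NC1 1 to 3 were the group that stood apart. The pseudogene TAAR3P, dim with a mean under 5 over the 6 arrays, was at 5.53, 5.73 and 4.93 against 3.99, 4.60 and 4.42 (-1.06, SE 0.21), and the check gave 0.16. Its call was lost without any array but NC1 3 (highest adjusted p = 0.160).

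Rises that stood against both control parts were led by ITGA2, the integrin subunit alpha-2 that binds collagen with beta-1. It was at 6.63, 6.44 and 6.11 with NC1 1 to 3 and at 7.88, 7.92 and 7.83 with the siRNA, 2.79-fold higher (1.48, SE 0.13, limma adjusted p = 0.000883). NC1 4 to 6 were at 6.82, 6.69 and 6.70, which gave 1.14. CHORDC1, a partner of the chaperone HSP90, was at 7.12, 6.40 and 6.32 against 8.22, 7.88 and 8.08 (1.45, SE 0.19), with 0.87 in the check. Here NC1 1 lay above the other control arrays, and the call was lost without NC1 2, siRNA 1 or siRNA 3 (highest adjusted p = 0.0836). CAPRIN2, an RNA-binding protein, was at 5.69, 5.66 and 5.40 against 6.67, 6.75 and 6.77 (1.15, SE 0.11), with 1.05 in the check. TMEM120B, a membrane protein gene, was at 6.62, 6.73 and 6.41 against 7.36, 8.27 and 7.45 (1.10, SE 0.21, and 1.03 in the check), with siRNA 2 well above the other 2 siRNA arrays. Its other probe set gave 0.20, and the call was lost whichever array was left out (highest adjusted p = 0.115). IL1RAP, the accessory subunit of the interleukin-1 receptor, was at 6.98, 7.0 and 6.60 against 8.21, 8.27 and 8.19 (1.36, SE 0.12), with 0.50 in the check. ITGA2, CAPRIN2 and IL1RAP kept their calls whichever of the 6 arrays was left out.

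Other large rises were smaller or absent in the check. DNAJB6, an HSP40 co-chaperone that holds back protein aggregation, was at 6.69, 6.72 and 6.46 against 8.07, 8.07 and 8.20 (1.49, SE 0.11, limma adjusted p = 0.000883). NC1 4 to 6 were at 8.19, 8.06 and 8.01, level with the siRNA arrays, and another probe set of DNAJB6 gave 0.56. MAPRE1, a protein of growing microtubule ends, was at 7.23, 7.11 and 6.84 against 8.38, 8.34 and 8.34 (1.29, SE 0.11), with 0.08 in the check. NEK7, a kinase of spindle assembly and of the NLRP3 inflammasome, was at 4.64, 4.78 and 4.34 against 6.00, 6.09 and 5.89 (1.41, SE 0.12), with -0.12 in the check. SC5D, an enzyme of late cholesterol synthesis, was at 4.00, 3.85 and 3.80 against 5.08, 5.06 and 4.92 (1.14, SE 0.10), with -0.35 in the check. SC5D is dim, with a mean under 5 over the 6 arrays. RP2 (1.26 and 0.38 in the check), a regulator of ciliary membrane traffic, RAP1B (1.12 and 0.38), a small GTPase of adhesion, and STYX (1.09 and 0.24), a pseudophosphatase, lay between these cases. All but RP2, lost without siRNA 3 (limma adjusted p = 0.0535), and RAP1B, lost without any siRNA array (highest 0.0788), kept their calls in each fit that left out 1 of the 6 arrays.

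**Figure D2:**
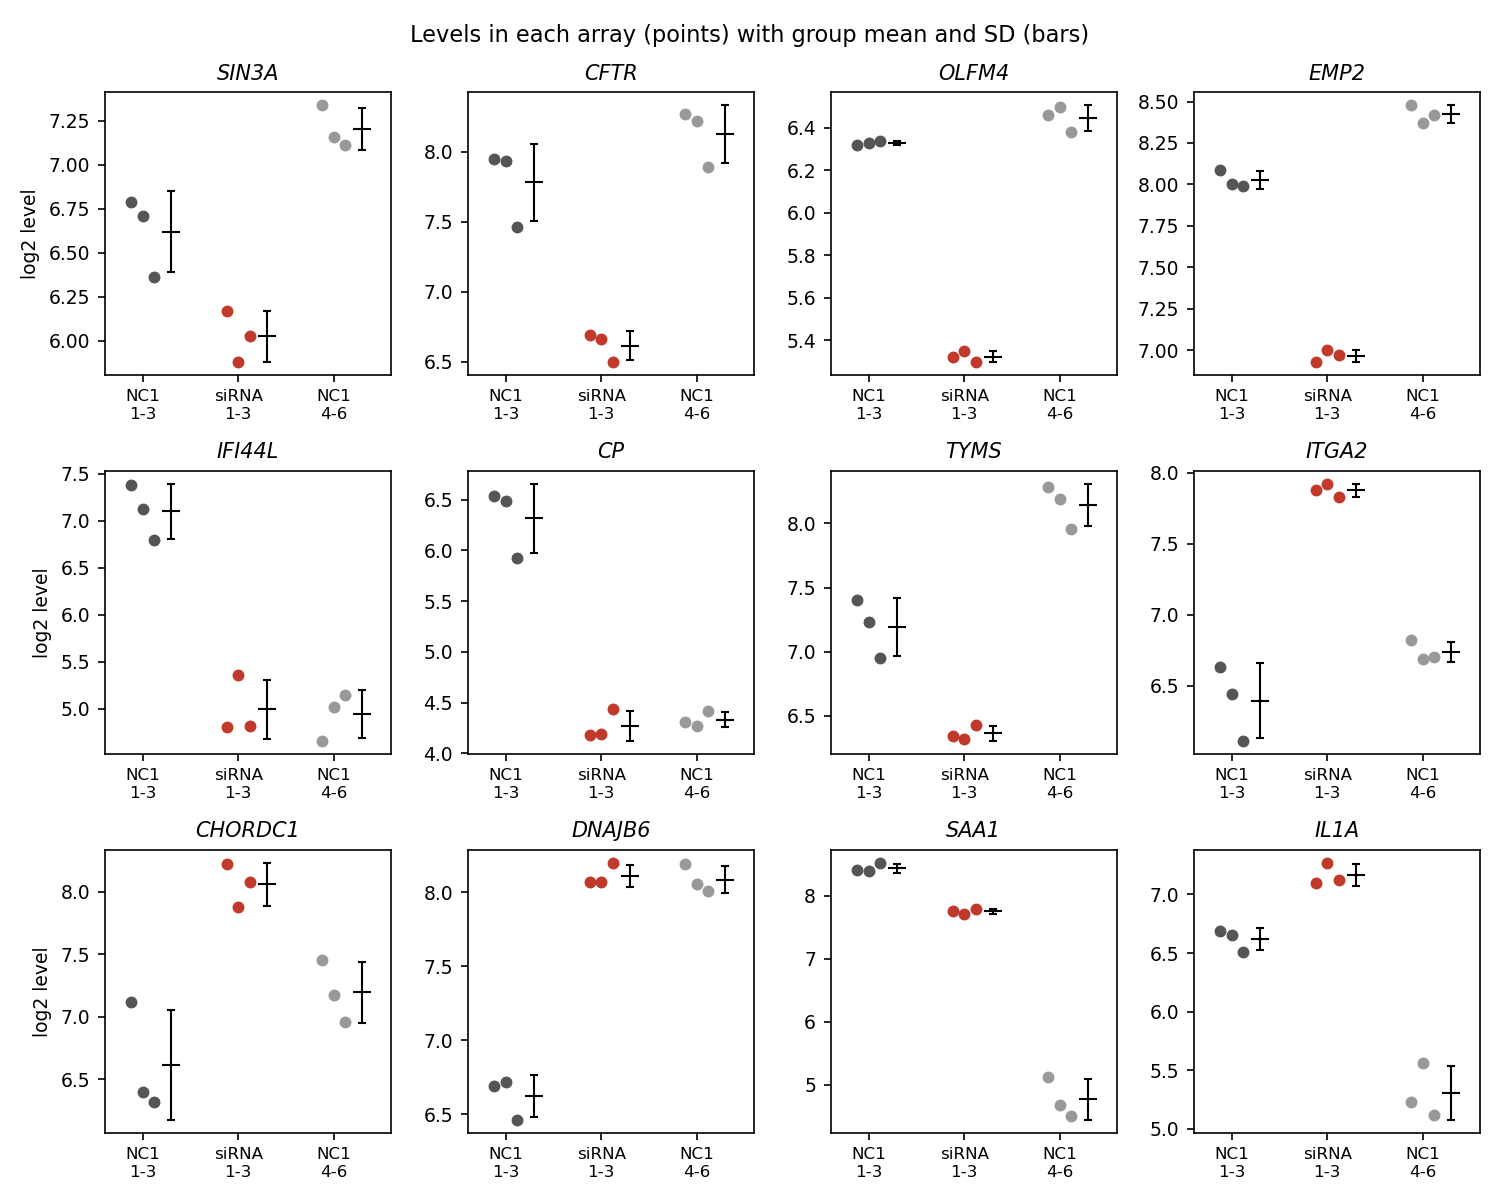
Log2 levels of 12 genes on each array (points) of NC1 1 to 3, SIN3A siRNA and NC1 4 to 6, with the mean and SD of each group of 3 beside the points; the y axes differ between panels and do not start at 0. For SIN3A, CFTR, OLFM4 and EMP2 the siRNA arrays lie below both control parts, for ITGA2 and CHORDC1 above both, while IFI44L and CP of NC1 4 to 6 lie near the siRNA arrays.

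The interferon response made up the largest block of falls among the lists. Of 63 measured interferon-response genes 23 fell and 0 rose, where 0.744% of all genes fell. For 44 of the 63 the siRNA arrays all lay below NC1 1 to 3, which held for 9.04% of all genes. The list median was -0.44, against -0.01 over all genes. The falling genes cover several roles. IFIT1, which binds viral RNA lacking a methylated cap, was at 6.85, 6.50 and 6.64 against 5.54, 5.43 and 5.45 (-1.19, SE 0.11). IFI44, encoded beside IFI44L, was at 8.38, 8.13 and 7.98 against 7.02, 6.75 and 6.97 (-1.25, SE 0.13). DDX60, a helicase that aids sensing of viral RNA, was at 6.23, 5.99 and 5.69 against 4.89, 4.99 and 4.73 (-1.10, SE 0.14). MX1, a GTPase that traps viral nucleocapsids, was at 6.68, 6.37 and 6.37 against 5.34, 5.42 and 5.58 (-1.02, SE 0.12). In each of these the groups were separated by more than the spread within either, and limma adjusted p values were 0.00105, 0.00181, 0.00750 and 0.00483 in that order. IFI44L, IFI44, IFIT1 and MX1 kept their calls whichever of the 6 arrays was left out, and DDX60 lost its call without NC1 2, siRNA 1 or siRNA 3 (highest adjusted p = 0.0798).

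Against NC1 4 to 6 the same list had a median of 0.18, with 21 genes called higher and 4 lower. IFIT1 was at 4.89, 5.14 and 5.11 with NC1 4 to 6, below all siRNA arrays (difference 0.42). The differences were 0.44 for DDX60 and 0.40 for MX1, both called, and 0.22 for IFI44, whose arrays overlapped. For IFITM1, a membrane protein that blocks viral entry, the differences from the main and the check control were -0.95 and 1.34, and for OAS1, an oligoadenylate synthetase, -0.59 and 1.07. RSAD2, which encodes the antiviral enzyme viperin, gave -0.90 and 0.93. EIF2AK2, the kinase activated by double-stranded RNA, gave -0.70 and -0.44, and APOL1, an apolipoprotein of innate defence, gave -0.49 and -0.78, so both lay below each control part. The number of interferon genes called lower was 22 without NC1 1 and 21 without NC1 3. It was 5 without NC1 2, and 6, 8 or 5 without siRNA 1, 2 or 3. Over all genes, 18 were called lower without NC1 2, and 16, 20 or 12 without siRNA 1, 2 or 3. The list median ran from -0.42 to -0.45 in these fits.

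The promoters of the falling interferon genes are shown because a sequence motif was frequent among them. RefSeq promoters of build GRCh38.p14, from 250 bases before to 50 after the gene start, were matched by symbol for 14239 of the 18417 genes. The interferon-stimulated response element was searched on both strands as GAAANNGAA. It stood in 13 of the 17 promoters matched for called interferon genes (76.5%) and in 32 of 49 for all measured interferon genes (65.3%), against 6.83% of all promoters. Among all falling genes it was in 24 of 107 (22.4%), among falling genes outside the interferon list in 11 of 90 (12.2%), and among rising genes in 18 of 188 (9.57%). The part before the gene start is printed for 4 of the falling genes, 5′ to 3′ on the gene's strand, with matches in capitals. They lie at chr1:78620198-78620447 (plus strand), chr10:89392373-89392622 (plus), chr1:78649539-78649788 (plus) and chr4:168318753-168319002 (minus) for IFI44L, IFIT1, IFI44 and DDX60.
IFI44L: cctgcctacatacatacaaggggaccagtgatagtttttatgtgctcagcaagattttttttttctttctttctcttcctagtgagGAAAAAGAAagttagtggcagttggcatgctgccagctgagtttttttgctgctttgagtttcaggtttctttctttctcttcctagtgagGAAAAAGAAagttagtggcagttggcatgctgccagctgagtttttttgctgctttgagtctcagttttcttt
IFIT1: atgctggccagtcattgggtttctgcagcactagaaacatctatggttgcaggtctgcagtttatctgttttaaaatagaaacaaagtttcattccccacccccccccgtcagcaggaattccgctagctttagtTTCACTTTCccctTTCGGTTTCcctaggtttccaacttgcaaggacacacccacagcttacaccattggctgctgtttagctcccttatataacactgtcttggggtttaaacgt
IFI44: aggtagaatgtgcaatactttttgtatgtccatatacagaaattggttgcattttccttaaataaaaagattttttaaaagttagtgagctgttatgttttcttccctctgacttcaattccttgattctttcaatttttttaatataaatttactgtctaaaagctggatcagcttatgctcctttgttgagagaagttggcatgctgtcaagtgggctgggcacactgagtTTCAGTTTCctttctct
DDX60: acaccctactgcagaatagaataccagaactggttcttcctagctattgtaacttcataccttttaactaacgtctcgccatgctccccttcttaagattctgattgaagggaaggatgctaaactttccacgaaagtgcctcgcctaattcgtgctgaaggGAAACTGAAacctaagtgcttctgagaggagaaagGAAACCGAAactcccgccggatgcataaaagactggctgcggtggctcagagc
In IFI44L the matches began 164 and 73 bases before the gene start, in IFIT1 115 and 102, in IFI44 17, and in DDX60 88 and 53. A match describes these letters and shows no binding.

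**Figure D3:**
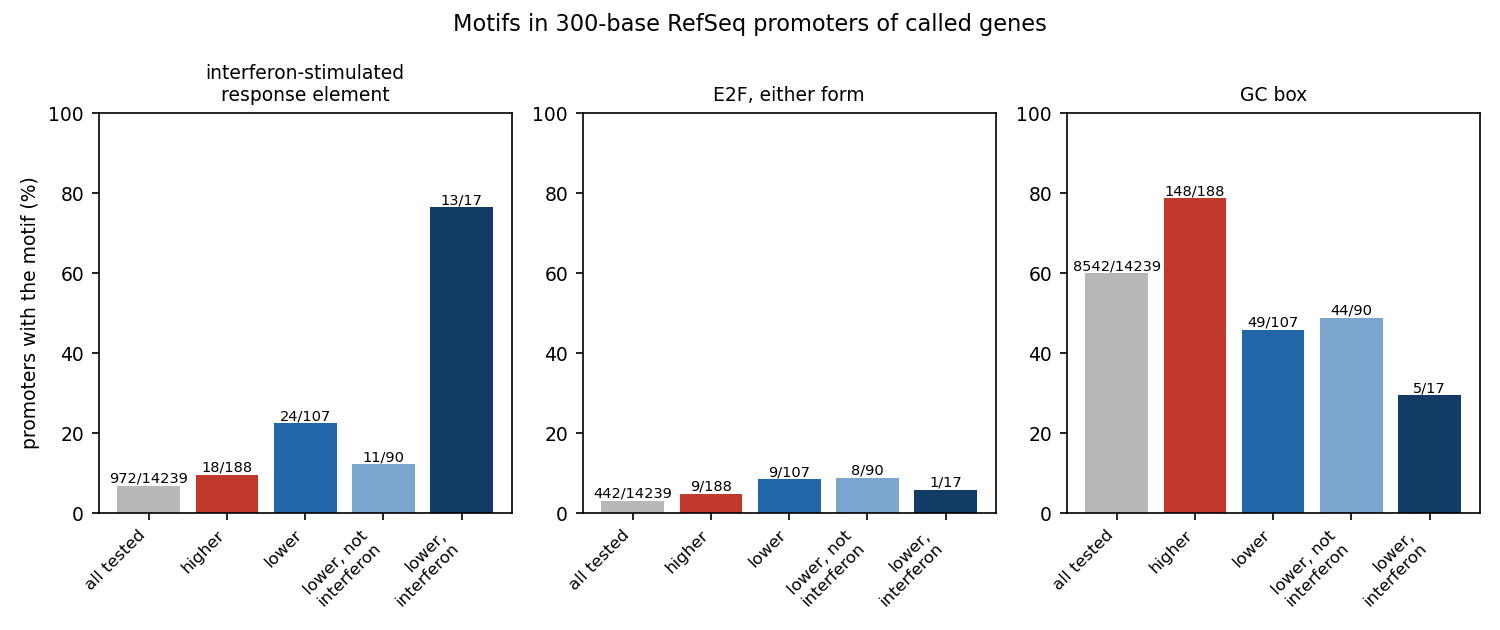
Share of RefSeq promoters (y axis, percent) that hold each of 3 motifs, for all tested genes with a promoter and for called genes (x axis), with the counts above the bars. The interferon element was in 13 of 17 promoters of falling interferon genes, and the GC box in 148 of 188 promoters of rising genes against 49 of 107 of falling ones.

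Acute phase and complement genes, which airway epithelium makes during inflammation, formed the next block of falls. Of 26 measured members 8 fell (30.8%, against 0.744% of all genes) and 0 rose, with a list median of -0.29. Beside CP these included PIGR, the receptor that carries antibodies across epithelium, at 6.08, 6.46 and 6.36 against 5.35, 5.51 and 5.47 (-0.86, SE 0.12). CFB, complement factor B, was at 9.32, 9.35 and 9.25 against 8.61, 8.62 and 8.57 (-0.71, SE 0.09), and its other probe sets gave -0.69 and -0.86. SAA1, serum amyloid A, was at 8.40, 8.39 and 8.52 against 7.76, 7.71 and 7.79 (-0.69, SE 0.09). Arrays agreed closely within each group, yet NC1 4 to 6 were far below both: CFB was at 7.54, 7.61 and 7.52 there, and SAA1 at 5.13, 4.68 and 4.50. The differences against NC1 4 to 6 were 1.04 for CFB, 2.98 for SAA1, 1.55 for SAA2 and 0.31 for PIGR. C5 (-0.88 and -0.57) and SERPINA1, the elastase inhibitor (-0.60 and -0.35), were lower against both control parts. The list had 7 called higher, 6 lower and a median of 0.16 against NC1 4 to 6. The number of falling members was 3 without NC1 2 and 1 without siRNA 1, 2 or 3, that gene being CP.

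**Figure D4:**
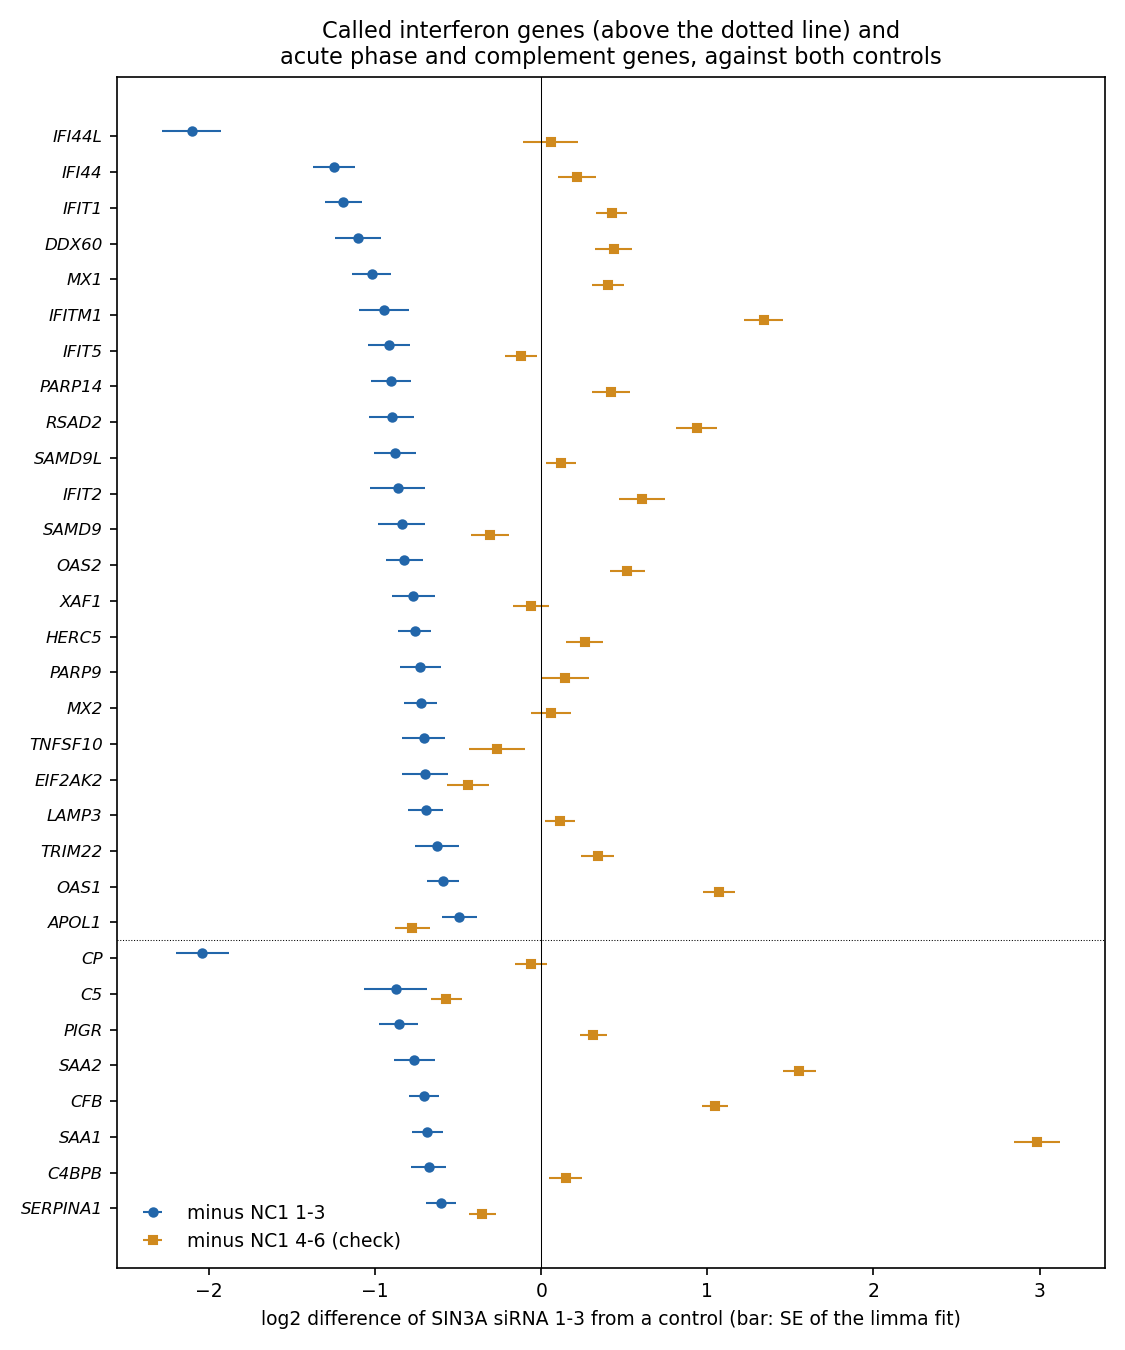
Log2 difference (x axis) of the siRNA arrays from NC1 1 to 3 (circles) and from NC1 4 to 6 (squares), with SE of each limma fit, for the 23 falling interferon genes and the 8 falling acute phase and complement genes (y axis). All circles lie left of 0, while SAA1 (2.98), SAA2 (1.55) and IFITM1 (1.34) lie farthest right among the squares.

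Inflammatory cytokine genes moved in both directions. Of 45 measured genes of NF-kB and inflammatory cytokines 2 rose and 2 fell (4.44% each way, against 1.27% and 0.744% of all genes), with a median of -0.03. In the check there were 9 higher and 2 lower, and the median was 0.14. IL6 was at 7.74, 7.51 and 7.03 against 6.43, 6.42 and 6.63 (-0.93, SE 0.16), and NC1 4 to 6 were at 4.93, 4.73 and 5.23, below the siRNA arrays. IL1A, the alarm cytokine interleukin-1 alpha, was at 6.69, 6.65 and 6.51 against 7.10, 7.27 and 7.12 (0.55, SE 0.10), and NC1 4 to 6 were at 5.23, 5.56 and 5.12, so it was higher than both control parts. CXCL2, a neutrophil chemokine, fell by 0.52 (SE 0.10), with 0.28 in the check, and IL1RAP is the other rising member. IL6 and IL1A lost their calls without NC1 2 or any siRNA array (highest adjusted p 0.134 and 0.144), and CXCL2 without any array but NC1 3 (0.165). In antigen processing 1 of 19 genes fell and 0 rose, with a median of -0.15, and against NC1 4 to 6 there were 5 higher and 1 lower, with a median of 0.04. The falling gene was HLA-DMB, which helps load class II molecules (-0.54, SE 0.10). It was at -0.11 in the check, where it was not called, and another of its probe sets gave -0.55.

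Secretory and defence genes of the airway fell for 4 of 41 members (9.76%, against 0.744% of all genes) and rose for 0, with a median of -0.14. The check differed in direction, with 8 called higher, 1 lower and a median of 0.07. The falling genes were OLFM4 and PIGR, given above, AGR2, a disulfide isomerase needed for mucin folding, and SLPI, a protease inhibitor of airway fluid. AGR2 was at 8.40, 8.50 and 8.48 against 7.57, 7.74 and 7.75 (-0.77, SE 0.10), and NC1 4 to 6 (7.67, 7.58 and 7.30) lay near the siRNA arrays. SLPI fell by 0.55 (SE 0.11), and the check gave 1.07. AGR2 lost its call without siRNA 1 or 3 (highest adjusted p = 0.0535), SLPI without any array but NC1 3 (0.180), and the list had 2 called members without NC1 2 and 1, 2 or 1 without siRNA 1, 2 or 3.

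Genes of oxidative phosphorylation, the respiratory chain and ATP synthase of mitochondria, gave the largest block of rises. Of 68 measured members 7 rose and 0 fell, where 1.27% of all genes rose. With genes under a mean of 5 left out, 9 of 66 members rose, beside 378 of 11050 genes. For 48 of the 68 the siRNA arrays all lay above NC1 1 to 3, and for 0 all below, against 11.2% and 9.04% of all genes. The list median was 0.23 and was 0.12 after a second quantile normalization, which called 5 members. Most rising members encode subunits of complex I, whose share of the whole list was not counted. NDUFA2 was at 8.27, 8.18 and 8.08 against 8.76, 8.72 and 8.90 (0.62, SE 0.10), NDUFA12 rose by 0.60 (SE 0.10) and NDUFA5 by 0.71 (SE 0.12), and NDUFA13 (0.50) and NDUFS7 (0.47) followed. The check gave 1.09, 0.52, 0.61, 0.59 and 0.42 for these 5 genes, the same direction in each. COX5B of complex IV was at 0.53 and at 0.58 in the check. ATP5PB, a stalk subunit of ATP synthase, was at 4.83, 4.84 and 4.69 against 5.51, 5.85 and 5.64 (0.88, SE 0.11), but NC1 4 to 6 were at 5.61, 5.70 and 5.88, level with the siRNA arrays. The list had 24 called higher and 2 lower in the check, where its median was 0.24. The number of rising members was 9 without NC1 1 and 6 without NC1 3, beside 398 and 150 rises over all genes. It was 1 without NC1 2, 1 without siRNA 1 or 2, and 0 without siRNA 3. Rises over all genes then numbered 27, 18, 19 and 11 in that order. The list median was 0.21 to 0.26 across the fits that left out 1 array.

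Of 74 genes of the mitochondrial ribosome 2 rose and 0 fell, with a median of 0.13 that was 0.06 after a second quantile normalization. The check gave 16 higher, 2 lower and a median of 0.16. MRPL1, of its large subunit, was at 6.04, 5.93 and 5.74 against 6.72, 6.65 and 6.88 (0.85, SE 0.11), with 0.18 in the check, and MRPL47 was at 0.46 and 0.13. In nucleolar ribosome biogenesis 2 of 51 rose and 0 fell (median 0.16), and against NC1 4 to 6 there were 6 higher and 2 lower (median 0.02). NOLC1, a phosphoprotein of the nucleolus, was at 7.42, 7.09 and 7.18 against 7.86, 7.84 and 7.85 (0.62, SE 0.11), with 0.27 in the check. NHP2, of box H/ACA particles, was at 0.48, its other probe set at 0.23, and it was at 0.18 in the check. Neither was called there. These 2.70% and 3.92% of members stand beside 1.27% of all genes, many of them dim. With genes under a mean of 5 left out, 3 of 73 and 4 of 48 members rose, beside 378 of 11050 genes. Without NC1 2 neither list had a called member. MRPL1 lost its call without NC1 2, siRNA 1 or siRNA 3, NOLC1 without NC1 2 or any siRNA array, and MRPL47 and NHP2 without any array but NC1 1 (highest adjusted p 0.0814, 0.132, 0.198 and 0.160).

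Genes of the path that proteins such as CFTR take to the cell surface had 4 calls, all of them rises. In secretory transport 4 of 53 genes rose (7.55%, against 1.27% of all genes) and 0 fell. With genes under a mean of 5 left out, 6 of 52 members rose, beside 378 of 11050 genes. The siRNA arrays lay above NC1 1 to 3 for 27 of the 53, where this held for 11.2% of all genes. They lay below NC1 1 to 3 for 3, against 9.04% of all genes. The median was 0.21, and against NC1 4 to 6 it was 0.13, with 11 called higher and 3 lower. MCFD2, of the cargo receptor that leaves the endoplasmic reticulum, was at 6.36, 6.17 and 6.02 against 7.09, 6.86 and 7.10 (0.84, SE 0.12), and SAR1B, the GTPase that starts COPII coats, was at 8.33, 8.16 and 7.71 against 8.85, 8.90 and 8.93 (0.82, SE 0.15). ARF4, a GTPase of the Golgi, rose by 0.54 and VAMP8, a fusion protein of endosomes and secretory granules, by 0.49. The check gave 0.05, 0.32, 0.31 and 0.50 for these 4 genes. The list had 0 called members without NC1 2, siRNA 1 or siRNA 3 and 1 without siRNA 2, and it had 2 without NC1 3 or after a second quantile normalization.

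Chaperones of the endoplasmic reticulum, which fold CFTR and other membrane proteins, had 2 of 29 members higher and 2 lower (6.9% each way, against 1.27% and 0.744% of all genes), with a median of 0.04. Most calls against NC1 4 to 6 were lower, with 12 lower, 4 higher and a median of -0.14. CANX, calnexin, was at 9.87, 9.77 and 9.69 against 9.31, 9.34 and 9.36 (-0.44, SE 0.09), with -0.81 in the check. RCN1 is the other falling member. CALU, another calcium-binding protein of this compartment, was at 8.16, 7.80 and 7.46 against 8.69, 8.63 and 8.79 (0.90, SE 0.16), with -0.11 in the check, and FKBP14, a proline isomerase, rose by 0.71 (SE 0.13), with 0.48 in the check. In degradation from the endoplasmic reticulum 1 of 31 rose, SELENOS, a selenoprotein of the membrane extraction complex (0.65, SE 0.14, and 0.73 in the check, which called 3 higher and 4 lower). None of 30 genes of the unfolded protein and integrated stress responses was called in limma, with 7 at an unadjusted p under 0.05, 1 higher and 1 lower in the fit of 12 arrays, and 4 higher and 2 lower in the check. Of 43 cytosolic chaperones and co-chaperones 2 rose, DNAJB6 and CHORDC1, and 0 fell, and the check called 5 higher and 6 lower. CANX lost its call without any array but NC1 3, CALU without NC1 2 or any siRNA array, and FKBP14 and SELENOS without any array but NC1 1 (highest adjusted p 0.187, 0.15, 0.166 and 0.208).

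Genes of the proteasome, lysosome and autophagosome had 3, 3 and 1 rises and no falls, which is 7.5%, 6.25% and 2.63% of the members measured, where 1.27% of all genes rose. The last is a single gene. With genes under a mean of 5 left out, 4 of 40, 5 of 45 and 4 of 33 rose, beside 378 of 11050 genes. Of 40 proteasome genes 3 rose, with a list median of 0.21 that was 0.11 after a second quantile normalization: PSMD2 (0.60, SE 0.11) and PSMD8 (0.50, SE 0.09) of the regulatory particle and PSMA5 (0.59, SE 0.11) of the core. PSMA5 was at 8.36, 8.10 and 8.02 against 8.70, 8.74 and 8.82. The check gave 0.11, 0.59 and 0.60 in that order, and there the list had 8 called higher, 1 lower and a median of 0.08. The lysosome list had 14 higher and 2 lower against NC1 4 to 6, and the autophagosome list 11 higher and 0 lower. Of 48 lysosome and proton pump genes 3 rose, all of them subunits of the proton pump that acidifies the lumen. ATP6V1D was at 7.26, 6.81 and 6.51 against 7.97, 7.89 and 7.90 (1.06, SE 0.16, and 0.86 in the check), and ATP6V0A1 and ATP6V1B2 each rose by 0.49 (0.33 and 0.42 in the check). Of 38 autophagosome genes 1 rose, GABARAP, which is conjugated to the growing membrane, from 6.87, 6.84 and 6.76 to 7.36, 7.33 and 7.31 (0.51, SE 0.09, and 0.20 in the check). Without NC1 2 or any siRNA array, 0 genes of these 3 lists were called. Without NC1 3 it was 1 for the proteasome, 2 for the lysosome and 2 for the autophagosome, and a second quantile normalization called 2, 1 and 1.

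Genes that act at the G1/S boundary and in DNA replication had 6 falls against NC1 1 to 3 and far more calls against NC1 4 to 6. Of 71 measured members 6 fell (8.45%, against 0.744% of all genes) and 1 rose (1.41%, against 1.27%), and the list median was -0.10. Against NC1 4 to 6, 44 of the 71 were called lower and 0 higher, with a median of -0.48. TYMS, thymidylate synthase, was at 7.40, 7.23 and 6.95 against 6.34, 6.32 and 6.43 (-0.83, SE 0.12, limma adjusted p = 0.0126). FAM111B, a protease expressed in S phase, was at 6.66, 6.54 and 6.36 against 5.82, 5.89 and 5.64 (-0.74, SE 0.11). HELLS, a chromatin remodelling helicase that supports DNA methylation, was at 5.68, 5.57 and 5.36 against 4.88, 4.90 and 4.63 (-0.74, SE 0.12). E2F8, a repressing E2F factor, was at 6.00, 5.92 and 5.74 against 5.37, 5.30 and 5.38 (-0.54, SE 0.10). GINS1, of the replicative helicase, fell by 0.64 and POLA1, the catalytic subunit of primase-polymerase, by 0.53. The siRNA arrays were lower still against NC1 4 to 6, at -1.78 for TYMS, -1.79 for FAM111B, -1.76 for HELLS, -0.76 for E2F8, -0.82 for GINS1 and -1.30 for POLA1. The rising gene, POLD3 of polymerase delta, was at 0.66 and at -0.36 in the check. Without NC1 2 or any siRNA array 0 members were called, and 3 fell without NC1 1.

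Promoters of the falling replication genes carried E2F motifs, which are frequent in the list as a whole. The motifs were searched on both strands as TTTCCCGC and TTTGGCGC, and 1 or both stood in 4 of the 4 promoters matched for falling members and in 24 of 60 for all measured members (40.0%). The share was 3.10% of all promoters, 8.41% (9 of 107) among falling genes and 4.79% (9 of 188) among rising genes. The 250 bases before the start of HELLS, chr10:94545538-94545787 (plus strand), and of POLA1, chrX:24693668-24693917 (plus strand), GRCh38.p14, are shown 5′ to 3′ with matches in capitals.
HELLS: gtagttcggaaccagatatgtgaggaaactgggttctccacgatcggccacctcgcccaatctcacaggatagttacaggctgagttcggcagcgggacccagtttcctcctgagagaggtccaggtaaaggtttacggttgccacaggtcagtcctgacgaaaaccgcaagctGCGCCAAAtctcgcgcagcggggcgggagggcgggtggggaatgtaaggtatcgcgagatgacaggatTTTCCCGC
POLA1: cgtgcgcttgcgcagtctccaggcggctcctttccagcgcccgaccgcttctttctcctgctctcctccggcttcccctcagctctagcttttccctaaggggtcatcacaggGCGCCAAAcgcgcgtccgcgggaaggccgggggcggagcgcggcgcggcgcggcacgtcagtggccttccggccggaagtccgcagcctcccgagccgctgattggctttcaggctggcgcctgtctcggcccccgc
In HELLS the matches began 76 and 8 bases before the gene start, and in POLA1 137 bases before it. The GC box, searched on both strands as GGGCGG, was in 60.0% of all promoters. Among rising genes the share was 78.7% (148 of 188), and among falling genes 45.8% (49 of 107). For every motif the promoters of all genes include those of dim genes, and no share was taken for bright genes alone.

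Of 61 mitotic genes 1 rose and 1 fell (1.64% each way, against 1.27% and 0.744% of all genes), with a median of 0.04. In the check 22 of the 61 were called lower and 1 higher, and the median was -0.30. MAD2L1, of the spindle checkpoint, was at 7.05, 6.83 and 6.40 against 6.09, 6.11 and 6.05 (-0.68, SE 0.15, and -1.02 in the check). HMMR, a spindle-associated protein, was at 6.98, 6.62 and 6.32 against 7.40, 7.25 and 7.38 (0.70, SE 0.15), with -0.57 in the check. Of 57 replication-dependent histone genes 1 fell, H2BC5, at 7.62, 7.67 and 7.42 against 6.83, 6.99 and 7.0 (-0.63, SE 0.11, and -0.13 in the check). Of all genes 0.744% fell, as did 1.75% of this list. In the check 31 of the 57 were called lower and 1 higher, and the list median was -0.44 there and -0.08 with NC1 1 to 3. Histone genes are close copies, so its probes may read others as well. Of 27 p53 targets TIGAR, a brake on glycolysis, rose (0.56, SE 0.11) and PLK2, a stress-induced kinase, fell (-0.54, SE 0.11), with 0.46 and -0.64 in the check, where 4 of the 27 were called higher and 3 lower. All 5 lost their calls without NC1 2 or any siRNA array, MAD2L1 and PLK2 also without NC1 1, and HMMR and TIGAR also without NC1 3 (highest adjusted p 0.206, 0.204, 0.109, 0.151 and 0.170 for MAD2L1, HMMR, H2BC5, TIGAR and PLK2).

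Adhesion genes changed in single members. Of 21 integrin genes ITGA2 and ITGB6 rose and 0 fell, with a median of -0.01, and the check called 1 higher and 2 lower. ITGB6, partner of alpha-v in the activation of TGF-beta, was at 7.45, 7.35 and 6.84 against 7.89, 8.04 and 7.91 (0.74, SE 0.15), and NC1 4 to 6 (7.91, 7.90 and 7.66) lay near the siRNA arrays. Of 41 mesenchymal and matrix genes 2 fell and 0 rose, and the check called 3 higher and 8 lower. TGFB2, a TGF-beta ligand, was at 6.75, 6.50 and 6.49 against 5.69, 6.18 and 5.89 (-0.66, SE 0.14), and THBS1, a matrix glycoprotein that activates TGF-beta, was at 6.88, 6.96 and 6.62 against 6.37, 6.24 and 6.29 (-0.52, SE 0.11). Both were lower than NC1 4 to 6 as well, by -0.58 and -0.77. None of 42 genes of epithelial junctions and polarity was called in limma, with 5 at an unadjusted p under 0.05, and 2 were higher in the fit of 12 arrays and 2 higher and 5 lower in the check. ITGB6 lost its call without NC1 2 or any siRNA array, THBS1 without any array but NC1 3, and TGFB2 without any 1 array (highest adjusted p 0.185, 0.208 and 0.190).

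Metabolic and signalling lists had 0 to 2 calls each against NC1 1 to 3 and more against NC1 4 to 6. There 12 of 29 genes of cholesterol and fatty acid synthesis were called lower and 0 higher (median -0.26, and 0.07 against NC1 1 to 3), and 8 of 34 of glycolysis and hypoxia were lower and 0 higher (median -0.13, and 0.12). Of the NRF2 targets 12 of 38 were called higher and 1 lower (median 0.18, and 0.06), and of the EGFR ligand and MAP kinase feedback genes 9 of 39 were higher and 2 lower (median 0.11, and 0.06). In glycolysis and hypoxia 2 of 34 rose, the glucose transporter SLC2A1 (0.54, SE 0.10) and the histone demethylase KDM3A (0.49, SE 0.10), with -0.34 and -0.02 in the check, and neither was above both control parts. Of 38 NRF2 targets 1 rose, AKR1B10, an aldo-keto reductase, from 8.46, 8.31 and 7.79 to 8.98, 9.0 and 9.04 (0.82, SE 0.15), and the check gave 1.84. In cholesterol and fatty acid synthesis SC5D was the 1 call among 29. In the Hippo pathway STK3, the kinase that acts with MOB1A, rose by 0.52 (SE 0.11, and 0.33 in the check), while MOB1A fell, and 29 other members were not called. In the check 4 of the 31 were called higher and 2 lower. None of 39 EGFR ligand and MAP kinase feedback genes, 25 small RNA machinery genes, 55 neuronal genes or 46 germ cell genes was called in limma. At an unadjusted p under 0.05 there were 6, 1, 9 and 6 of these, and in the fit of 12 arrays 2 higher, none, 1 higher and 2 lower, and 2 lower. The check called 1 small RNA machinery gene lower, 1 neuronal gene higher and 4 lower, and 4 germ cell genes lower. SLC2A1 lost its call without any array but NC1 3, STK3 without any but NC1 1, KDM3A without any 1 array, and AKR1B10 without NC1 2 or any siRNA array (highest adjusted p 0.146, 0.181, 0.193 and 0.160).

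**Figure D5:**
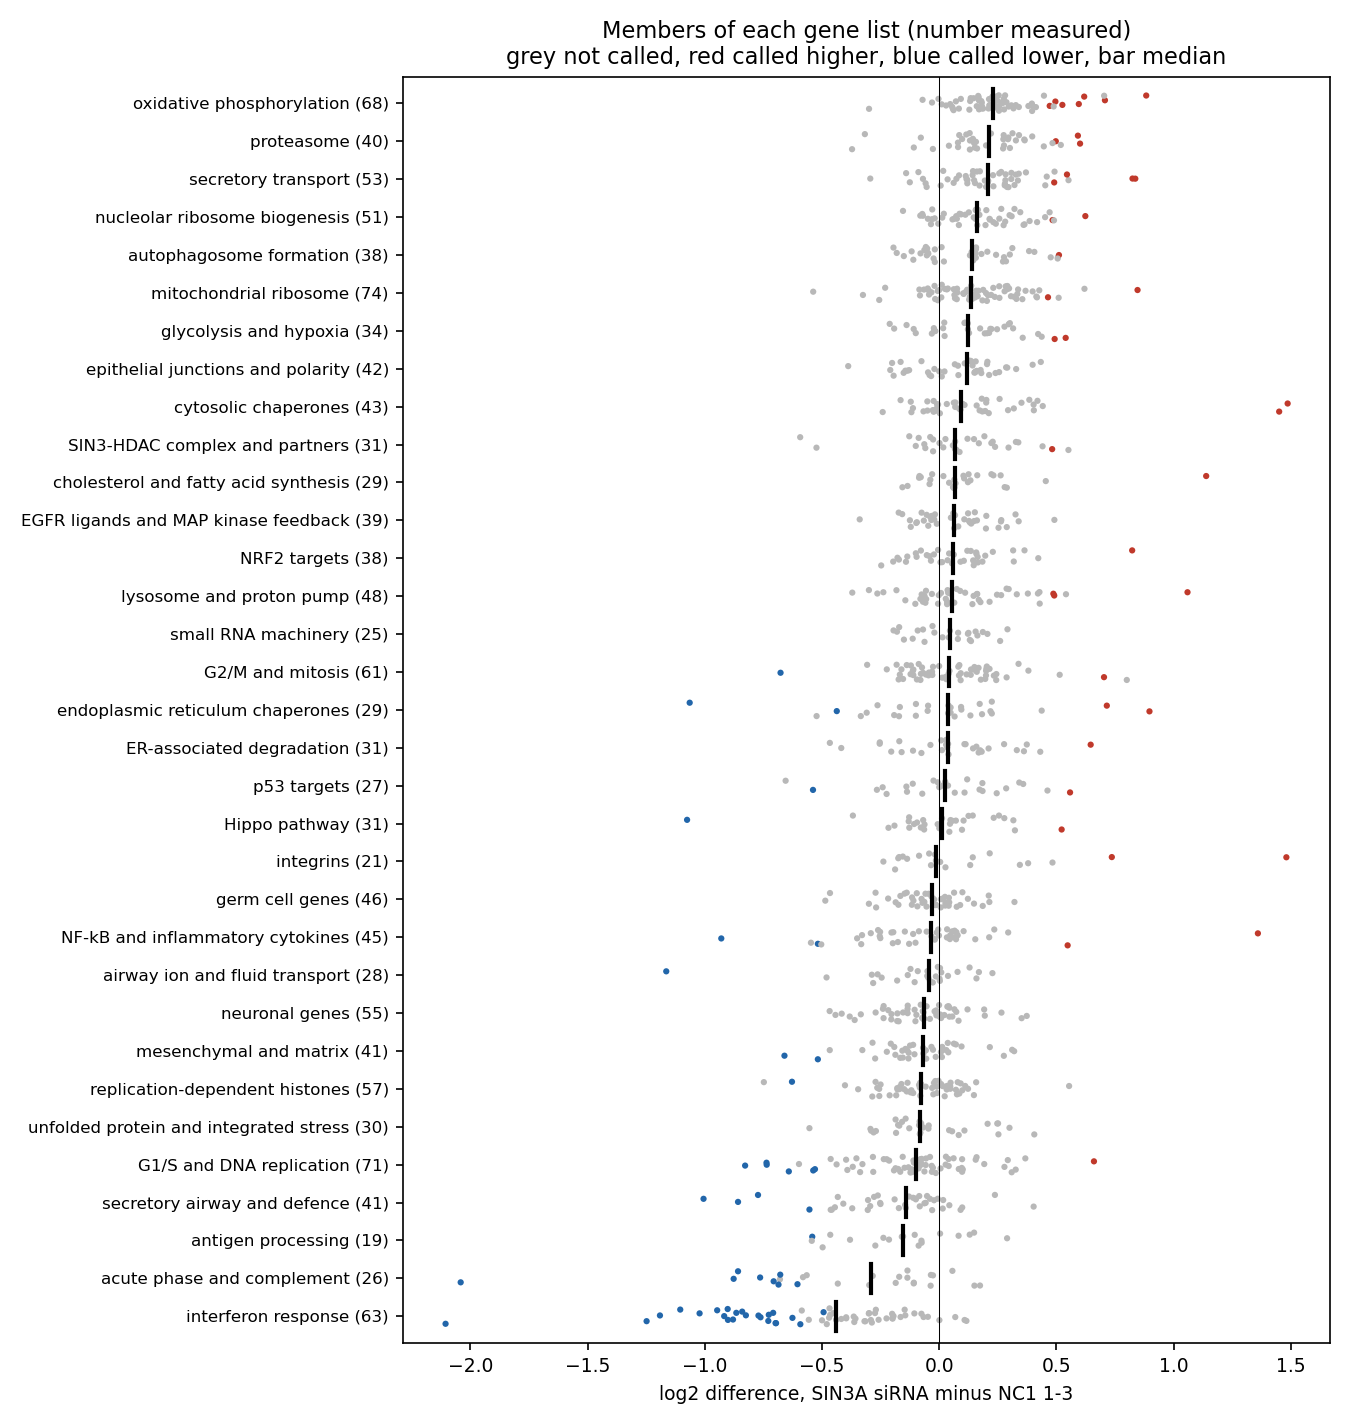
Log2 difference of the siRNA arrays from NC1 1 to 3 (x axis) for every measured member of 33 gene lists (y axis, number measured in brackets), with called members in red or blue and the list median as a bar. Blue points gather in interferon response (median -0.44) and in acute phase and complement (-0.29), and the bar of oxidative phosphorylation lies farthest right (0.23).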

How the data were processed

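RNA of 12 Calu-3 samples was measured on whole-transcript arrays. The deposited log2 values, 1 per probe set and array, were used as the authors left them. RMA and Partek 6.3 are named by the submitters' processing notes, with no step assigned, and no genome build is given in the sources used here. Of 33297 probe sets, 19460 carry 1 gene symbol, 1754 several and 12083 none. Each of 18417 genes was represented by its single-symbol probe set with the highest mean over 12 arrays (769 genes had several). Gene names come from the platform annotation.

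The 6 arrays were fitted as 2 groups with lmFit and eBayes in limma 3.58.1 under R 4.3.3, with 4 residual and 6.21 prior degrees of freedom. The number of arrays limits precision, and the median SE was 0.11. The procedure was also run on simulated data. These held no outlying array and no difference between control parts, so the run cannot speak to either. Alternatives were other control sets, a replicate block, other scalings, filters and probe set rules, and leaving out each array. The members and lists were chosen with earlier results of these data known. The rule named SIN3A, CFTR, the 12 largest rises and 12 largest falls among called genes with separate groups (unnamed loci, open reading frame names and small RNA genes left out), and up to 4 called members of each list by smallest adjusted p. Genes named outside it were chosen after their values were seen: SIN3B, HDAC1, HDAC2, ING2, SUDS3, TET1, EPCAM, IFITM1, OAS1, RSAD2, EIF2AK2, APOL1, SAA2, C5, SERPINA1, NDUFA13, NDUFS7, COX5B, GINS1, POLA1 and POLD3. Motif letters in RefSeq promoters were counted without a test. The miR-138 mimic arrays enter only the fit of 12 arrays.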

Additional observations from a re-analysis of the deposited data

Results flagged for a closer look

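CAPRIN2, which rose with the siRNA, had 1 control array far from the other 5. Among the 6 NC1 arrays it was lowest on NC1 3, at 5.40, and the nearest other array was at 5.61. This gap was 0.651 of the whole range of the 6 arrays. Chance alone marks about 1 in 20 groups in this way, and the named genes were all examined.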

How the results depend on the processing

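The count of 371 called genes depended on the arrays entered. It was 1050 with all 12 arrays as 4 groups and 2079 with NC1 4 to 6 as the control. It ran from 23 to 511 when 1 of the 6 arrays was left out of the fit of 6 arrays. Added after seeing the data, the 12-array fit less NC1 1, 2 or 3 gave 1410, 685 or 828, and less siRNA 1, 2 or 3 it gave 646, 517 or 558. With all 6 NC1 arrays it was 357, after a second quantile normalization 371, after centring arrays on their median 333, with dim genes (mean under 5) left out 553, with trend in eBayes 460 and with all probe sets averaged 380. Of the 76 named called genes, 15 were called in each 6-array fit less 1 array and 70 in each 12-array fit less 1.

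SIN3A, at -0.59 and not called, was called with 12 arrays (-0.59), with NC1 4 to 6 (-1.18), with all 6 NC1 arrays (-0.88), after a second quantile normalization (-0.64), without dim genes (-0.59), with trend (-0.59) and without NC1 3 (-0.73). In the 12-array fit it was called less NC1 1 (-0.51), NC1 2 (-0.55), NC1 3 (-0.73), siRNA 1 (-0.67) or siRNA 3 (-0.59), and missed the threshold less siRNA 2. Leaving out 1 array moved it between -0.51 and -0.73 in either fit. CFTR was called under each alternative run except without siRNA 3 (-1.11), and ran from -1.08 to -1.32 when 1 array was left out.

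Replicate numbers did not pair the arrays: deviations of same-numbered arrays from their group means correlated at -0.03, 0.02 and 0.02 across genes. With the number as a replicate block the fit called 370 genes, of which 311 were called in the same direction without it, and SIN3A was called (-0.59, limma adjusted p = 0.0387).

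Against NC1 4 to 6 the direction turned for NEK7 (-0.12), SC5D (-0.35), IFI44L (0.056), IFI44 (0.22), IFIT1 (0.42), DDX60 (0.44), TAAR3P (0.16), ATP5PB (-0.062), CALU (-0.11), HMMR (-0.57), MX1 (0.40), IL6 (1.53), CXCL2 (0.28), CFB (1.04), SAA1 (2.98), PIGR (0.31), AGR2 (0.17), SLPI (1.07), SLC2A1 (-0.34) and KDM3A (-0.017). Of these genes, NEK7, SC5D, IFI44L, IFI44, TAAR3P, ATP5PB, CALU, CXCL2, AGR2 and KDM3A were not called against NC1 4 to 6. Against all 6 NC1 arrays the direction turned for IL6 (0.30), CFB (0.17), SAA1 (1.15) and SLPI (0.26), none of them called there. The cause was not tested.

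Precision is limited by 3 arrays a group: the smallest called rise was 0.43. Arrays give no counts, and the deposited values carry no detection call, so dim probe sets were kept. Among named genes these include ANKRD31, SLFN11, TAAR3P, SC5D and TIGAR, each with a mean under 5 over the 6 arrays.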

Other observations

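Some called genes belong to none of the lists described, and they were picked here after their values were seen. Among falls, TLR3, the endosomal sensor of double-stranded RNA, was at 5.84, 5.52 and 5.56 with NC1 1 to 3 and at 4.61, 4.70 and 4.67 with the siRNA (-0.98, SE 0.11), and NC1 4 to 6 were at 4.77, 4.99 and 4.97, a difference of -0.25 that was not called. IFI16, a DNA sensor, fell by 0.83 (SE 0.11) and was 0.46 above NC1 4 to 6. RARRES1, a retinoid-induced gene, fell from 9.15, 9.21 and 9.15 to 8.23, 8.18 and 8.26, while NC1 4 to 6 (8.20, 8.18 and 8.21) were level with the siRNA arrays. SNX10, a sorting nexin of endosomes, fell by 1.03 (SE 0.16, and -1.84 against NC1 4 to 6). GJA1, a gap junction protein, fell by 0.76 (SE 0.13, and -0.95). HDAC9, a deacetylase, fell by 0.46 (-0.45 against NC1 4 to 6) and KAT2B, an acetyltransferase, fell by 0.65 (-0.59).

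Among rises, SEMA7A, a membrane-anchored semaphorin, was at 6.02, 5.66 and 6.00 against 7.0, 6.86 and 6.85 (1.01, SE 0.12, and 1.09 against NC1 4 to 6). MICA, a stress ligand of natural killer cells, rose by 0.90 (SE 0.12, and 0.90). EZH1, a histone methyltransferase, rose by 0.60 (0.56). RAB21, a small GTPase, rose by 0.96 and AP1S3, an adaptor subunit, by 0.99, with -0.09 and -0.23 against NC1 4 to 6. These are single genes, and no group was tested.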
